A study of Mus musculus with 9 samples.

Results

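Skeletal muscle of mice that had breathed 8% oxygen for 2 h was compared with muscle of control mice, to show which transcripts respond early to hypoxia in the living animal. The 2 h group has 3 libraries and the control group, taken at 0 h, has 3, so that 6 of the 9 libraries of the study were compared. The third group, 6 h of 8% oxygen with 3 libraries, lends its spread to the fit, and its values are given beside those of 2 h. All groups are plantaris, a fast muscle of the hindlimb, from male C57BL/6J mice of 3 months, with no allele or drug; the labels' own strain field reads C57BL/6. The controls were taken at 1 time, so hours in hypoxia cannot be told apart from clock time, fasting or handling over those hours. Whether a library is 1 mouse is not stated outright. The p-values set the group difference against the spread between libraries, which need not be the spread between mice. Every gene with a mean of at least 0.5 RPKM (reads scaled to exon length and sequencing depth) over the 9 libraries was tested. These are 13309 of the 13722 genes in the table, and the other 413 were left out.

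Cells meet falling oxygen on several time scales. The hypoxia-inducible factors are stabilised within minutes and switch on genes of glucose use, iron uptake and vessel growth, while a body under hypoxia also releases glucocorticoids and adrenaline and eats less. In muscle, low insulin signalling lets FoxO transcription factors enter the nucleus, where with the glucocorticoid receptor and Klf15 they turn the fibre towards the breakdown of protein and amino acids.

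The tissue was fast muscle by its markers: all 10 muscle identity genes were measured, none was called, and they summed to 104881 to 120289 RPKM at 2 h, against 109729 to 116377 RPKM in control. The reads recovered from the RPKM steps came to 116013788, 127765992 and 137097898 for the 2 h libraries, against 124371305, 109220427 and 117684235 for the controls. Other cell types differed between libraries. Collagen and matrix genes summed to 431, 376 and 482 RPKM at 2 h, against 721, 1220.5 and 1298 RPKM in control, and the macrophage markers to 83.1, 69.4 and 70.7 RPKM at 2 h, against 54.8, 225 and 247 RPKM in control. Control replicates 2 and 3 are thus high in both, as is 6 h replicate 2. A second fit with an extra term for these 3 libraries is called the matrix-adjusted fit below. Genes of liver and choroid plexus summed to 1.34, 1526 and 22.9 RPKM at 2 h, with Ttr alone at 0.773, 1494 and 21.1 RPKM, against no more than 0.420 RPKM in control. Neutrophil markers were high in 2 h replicate 1 and control replicate 2, at 36.3, 1.80 and 2.93 RPKM at 2 h, against 1.07, 39.4 and 12.1 RPKM in control. The summed endothelial, smooth muscle and adipocyte markers overlapped between the groups, and only 1 of 9 lymphocyte markers was in the table.

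**Figure D1:**
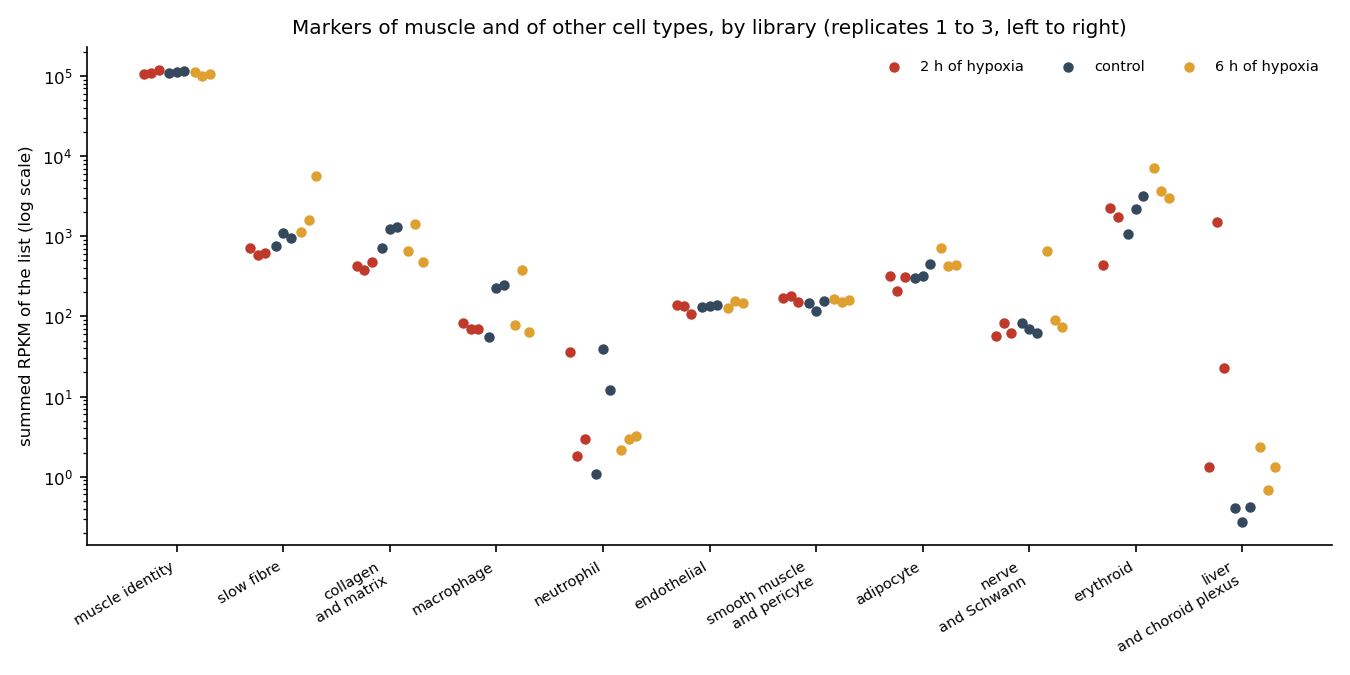
Summed RPKM (log axis) of marker lists in each library, with 2 h of hypoxia in red, control in dark blue and 6 h of hypoxia in yellow; each point is 1 library. The fast muscle sums lie close together, the matrix and macrophage sums are high in control replicates 2 and 3 and 6 h replicate 2, and the liver and choroid plexus sum is 1526 RPKM in 2 h replicate 2.

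After 2 h, 63 genes rose and 40 fell by limma at an adjusted p under 0.05, which is 0.473% and 0.301% of the genes tested, or 0.774% in both directions. The rises were small: their log2 differences ran between 0.43 and 2.11 with a median of 0.72, and 11 passed 2-fold. The falls ran between -0.56 and -2.09 with a median of -0.90, and 16 passed 2-fold. Genes that rose had a median of 20.8 RPKM at 2 h, and those that fell 3.93 RPKM at 2 h. The 2 h values also set the direction, which raises the first median and lowers the second. Of all genes tested 20.1% had an unadjusted p under 0.05. In each of the 103 the 3 libraries at 2 h lay all above or all below the 3 controls, as they did in 27.5% of all genes tested (14.9% above and 12.6% below). The smallest adjusted p was 0.0145, and 80 of the 103 lay above 0.04, so most calls stand near the threshold. Exons of 35 of the 103 overlap another annotated gene, 31 of them one on the opposite strand. The share over all genes tested was not counted, so these counts cannot show whether the called genes are unusual. The sources used here do not say whether counting used strand. Partners with a full gene name are given below. Partners known only by a predicted or clone name overlap Acsl1, Ank2, Azin1, Cry2, Ephx1, Foxo1, Mtmr10, Neat1, Nedd9, Pik3ip1, Tmem42, Wdr45 and Zdhhc4.

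**Figure D2:**
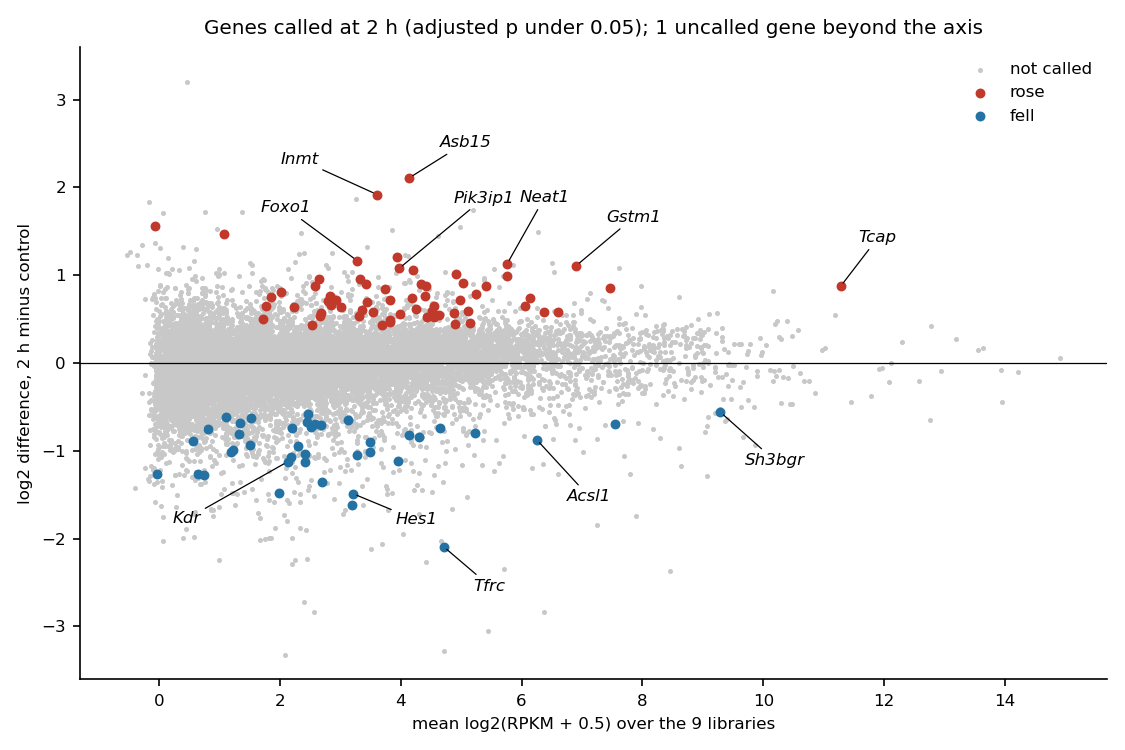
Log2 difference of each tested gene, 2 h minus control (vertical), against its mean log2(RPKM + 0.5) over the 9 libraries (horizontal). The 63 genes that rose are in red and the 40 that fell in blue; Tcap is the most abundant gene called, Asb15 the largest rise and Tfrc the largest fall, and 1 uncalled gene, Ttr, lies beyond the axis.

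Foxo1, Pik3ip1, Klf15 and Arrdc2 were among the genes that rose. Foxo1, a transcription factor that insulin keeps out of the nucleus, had 9.39, 13.9 and 11.5 RPKM at 2 h, against 5.17, 4.47 and 4.85 RPKM in control (log2 1.17 ± 0.14 SE, adjusted p = 0.0197). Pik3ip1, which binds and inhibits PI3 kinase, had 20.6, 24.5 and 22.5 RPKM at 2 h, against 11.4, 9.99 and 9.78 RPKM in control (log2 1.08 ± 0.10 SE, adjusted p = 0.0145). Klf15, a transcription factor that glucocorticoids induce and that drives amino acid breakdown, had 21.2, 30.8 and 22.7 RPKM at 2 h, against 12.4, 10.1 and 12.2 RPKM in control (log2 1.06 ± 0.17 SE, adjusted p = 0.0420). In these genes every 2 h library stood above every control; 2 h replicate 2 was highest in each, and Pik3ip1 varied least within its groups. Arrdc2, an arrestin-domain adaptor, had 76.2, 82.9 and 69.5 RPKM at 2 h, against 47.1, 33.2 and 35.1 RPKM in control (log2 0.99 ± 0.15 SE, adjusted p = 0.0403), and control replicate 1 came nearest to the 2 h libraries.

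The other members of the lists that hold these genes were not called. Of 21 FoxO target and atrophy genes 2 rose, Foxo1 and Klf15, and 0 fell, where 0.473% rose and 0.301% fell of all genes tested. The median log2 difference of the 21 was 0.25 against -0.000285 over all genes tested. These lists were chosen with earlier results of these data known, and Klf15 counts again among the glucocorticoid-induced genes below. The atrophy ubiquitin ligase Fbxo32 had 148, 221 and 109 RPKM at 2 h, against 64.8, 68.3 and 91.9 RPKM in control (log2 1.04 ± 0.26 SE, adjusted p = 0.0833). Its groups do not overlap, yet it missed the threshold. Trim63, the other classical ligase of atrophy, had 270.1, 641 and 342 RPKM at 2 h, against 168, 419 and 374 RPKM in control (log2 0.39 ± 0.40 SE, adjusted p = 0.617). Here the groups overlap. Of 23 glucocorticoid-induced genes Klf15 and Arrdc2 rose and 0 fell, with a median of 0.04. Fkbp5, a chaperone of the steroid receptor, had 32, 67.7 and 62.1 RPKM at 2 h, against 23.1, 23.9 and 25.5 RPKM in control (log2 1.07 ± 0.25 SE, adjusted p = 0.0704), with 2 h replicate 1 close to the controls. Tsc22d3, the glucocorticoid-induced leucine zipper, had 125, 148 and 156 RPKM at 2 h, against 89.7, 99.8 and 102 RPKM in control (log2 0.55 ± 0.11 SE, adjusted p = 0.0569). The metallothioneins, also steroid targets, stood the other way. Mt2 had 130.0, 91.5 and 88.3 RPKM at 2 h, against 140.5, 1354 and 762 RPKM in control (log2 -2.36 ± 0.74 SE, adjusted p = 0.133). Its control replicate 1 lies by the 2 h libraries, and the 2 controls of high matrix genes lie far above. Of 34 insulin and PI3 kinase genes Pik3ip1 rose and 0 fell, with a median of -0.09. Irs1, the insulin receptor substrate, had 2.76, 2.28 and 2.26 RPKM at 2 h, against 10.4, 3.94 and 4.42 RPKM in control (log2 -1.08 ± 0.29 SE, adjusted p = 0.0979), with control replicate 1 far above the other two.

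Asb15, Tcap, Acvr1b and Myl9 were also among the rises. Asb15, a SOCS-box protein that picks substrates for a ubiquitin ligase in muscle, had the largest rise, at 24.9, 59.9 and 35.8 RPKM at 2 h, against 10.8, 6.76 and 8.00 RPKM in control (log2 2.11 ± 0.34 SE, adjusted p = 0.0420). Its 2 h libraries spread widely, with replicate 2 highest, but the lowest of them was still above every control. Tcap, the titin cap protein of the Z-disc, had 2804, 2840.1 and 3312 RPKM at 2 h, against 1954, 1452 and 1509.7 RPKM in control (log2 0.87 ± 0.14 SE, adjusted p = 0.0420). It is the most abundant gene called. Acvr1b, a receptor for activin and myostatin, had 16.5, 21.2 and 19 RPKM at 2 h, against 9.63, 6.87 and 7.24 RPKM in control (log2 1.21 ± 0.17 SE, adjusted p = 0.0298). It was the 1 gene called of 29 in the TGF-β and activin list, whose median was -0.24. The type II receptor Tgfbr2 had 3.27, 2.68 and 2.51 RPKM at 2 h, against 4.26, 5.24 and 5.23 RPKM in control (log2 -0.70 ± 0.18 SE, adjusted p = 0.0837). This difference has the other sign and missed the threshold. Lims2, an adaptor at integrin adhesions (it overlaps Gpr17), rose by 0.61 on the log2 scale (adjusted p = 0.0420). Myl9, a regulatory myosin light chain of smooth muscle, had 39.5, 42.3 and 35.6 RPKM at 2 h, against 25.5, 25.1 and 26.5 RPKM in control (log2 0.60 ± 0.09 SE, adjusted p = 0.0403). Smooth muscle and pericyte markers summed to 151 to 179 RPKM at 2 h, against 116 to 154 RPKM in control. Of the 9 markers 0 were called, while 8 had a higher mean and 1 a lower one (median 0.14). Their part in the rise of Myl9 was not tested. In bulk muscle fewer cells of a type and less RNA per cell cannot be told apart. Other rises of muscle proteins were those of the potassium channel Kcnc4 (0.84) and the ADP-ribosyltransferase Art5 (0.88). Of 23 ubiquitin ligase subunits of muscle Asb15 alone was called. Asb11, its relative, had 193, 116 and 107 RPKM at 2 h, against 55.5, 66.6 and 59.9 RPKM in control (log2 1.14 ± 0.28 SE, adjusted p = 0.0818).

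The promoters of the 3 genes among the 12 largest named rises that hold the palindromic E-box CACGTG, the letters bound by clock and Tfeb-type factors, are printed to show its place in each. They span 250 bases before to 50 after the start in RefSeq (GRCm38.p6). Capitals mark CACGTG. The windows are Asb15 at chr6:24527894-24528193, Klf15 at chr6:90462326-90462625 and Acvr1b at chr15:101173822-101174121, all on the plus strand.
Asb15 promoter: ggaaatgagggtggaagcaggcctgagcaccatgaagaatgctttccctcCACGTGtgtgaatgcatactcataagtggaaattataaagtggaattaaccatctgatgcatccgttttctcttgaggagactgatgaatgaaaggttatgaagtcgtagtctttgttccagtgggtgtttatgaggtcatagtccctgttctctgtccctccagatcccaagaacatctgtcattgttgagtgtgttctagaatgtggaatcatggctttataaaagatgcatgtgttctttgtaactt
Klf15 promoter: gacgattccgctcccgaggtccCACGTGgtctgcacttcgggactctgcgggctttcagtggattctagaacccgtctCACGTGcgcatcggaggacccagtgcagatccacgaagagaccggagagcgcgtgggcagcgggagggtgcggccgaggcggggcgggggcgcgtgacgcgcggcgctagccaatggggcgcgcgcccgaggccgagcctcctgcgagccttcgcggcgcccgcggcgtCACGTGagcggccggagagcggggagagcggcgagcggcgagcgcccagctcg
Acvr1b promoter: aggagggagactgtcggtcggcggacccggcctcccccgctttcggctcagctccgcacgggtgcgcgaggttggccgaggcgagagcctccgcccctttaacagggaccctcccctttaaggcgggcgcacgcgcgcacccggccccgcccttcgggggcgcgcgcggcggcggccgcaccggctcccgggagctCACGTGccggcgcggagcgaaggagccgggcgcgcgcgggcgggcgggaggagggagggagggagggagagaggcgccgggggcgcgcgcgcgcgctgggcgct
The match starts at base -200 from the start in Asb15, at -228, -172 and -3 in Klf15, and at -54 in Acvr1b. RefSeq promoters were listed for 43 of the 63 genes that rose, 25 of the 40 that fell and 9100 of the genes tested. CACGTG stood in 7 of 43 that rose (16.3%), in 2 of 25 that fell (8.00%), and in 11.8% of the promoters of all tested genes. The 7 are those of Acvr1b, Art5, Asb15, Chaf1a, Eif3f, Klf15 and Ubxn6. Its inner ACGTG, the core letters bound by the hypoxia-inducible factors, stood in 16 of 43 (37.2%), 8 of 25 (32.0%) and 29.2% of all. The FoxO letters GTAAACA stood in 4 of 43 (9.30%), 1 of 25 (4.00%) and 3.12% of all. These 4 are Ccni, Ypel3 and genes with clone names, and Klf15 is not among them. The letters TGGGAA of the Notch effector stood in 12 of 43 (27.9%), 6 of 25 (24%) and 27% of all. The cyclic AMP half-site TGACGT stood in 3 of 43 (6.98%), 4 of 25 (16%) and 12.9% of all. The AP-1 letters TGACTCA stood in 0 of 43, 1 of 25 (4.00%) and 4.60% of all. All letters were searched on both strands, and every CACGTG is also counted as an ACGTG. A full glucocorticoid response element stood in 0 promoters of called genes and 0.0220% of all, and a full heat shock element in 0 and 0.637% of all.

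Inmt, Gstm1, Gpx3 and Xdh were among the enzymes whose genes rose. Inmt, which methylates indole amines, had 13.3, 21.9 and 24.5 RPKM at 2 h, against 5.97, 3.17 and 5.52 RPKM in control (log2 1.92 ± 0.30 SE, adjusted p = 0.0420). The lowest 2 h library, replicate 1, was above each control. Gstm1, a glutathione transferase, had 193, 168 and 167 RPKM at 2 h, against 86.3, 78.3 and 78.9 RPKM in control (log2 1.11 ± 0.17 SE, adjusted p = 0.0420). Neither group spread much. Gpx3, the glutathione peroxidase secreted into plasma, had 276, 216 and 193 RPKM at 2 h, against 136, 123 and 114 RPKM in control (log2 0.86 ± 0.14 SE, adjusted p = 0.0420). Here 2 h replicate 1 was highest. These last 2 were the calls among 28 glutathione and antioxidant genes, with a median of 0.11 and 0 falls. A neighbour of Gstm1 in sequence, Gstm2, had 102, 60.3 and 42 RPKM at 2 h, against 17.9, 17.3 and 21.2 RPKM in control (log2 1.74 ± 0.35 SE, adjusted p = 0.0552). Reads could be split between this pair. Xdh, the xanthine oxidoreductase that makes urate, had 9.71, 10.7 and 7.61 RPKM at 2 h, against 5.30, 5.10 and 5.34 RPKM in control (log2 0.76 ± 0.12 SE, adjusted p = 0.0420). Ephx1, the microsomal epoxide hydrolase, rose by 0.90 on the log2 scale, and the hydrolase relative Haghl (it overlaps Narfl) by 0.69. Nudt16, a hydrolase of inosine nucleotides and RNA caps, had 4.02, 3.97 and 3.99 RPKM at 2 h, against 1.99, 2.29 and 2.27 RPKM in control (log2 0.75 ± 0.10 SE, adjusted p = 0.0258). Its 2 h libraries differed by less than 0.1 RPKM. Nme3, a nucleoside diphosphate kinase (it overlaps Mapk8ip3 and, on its own strand, Mrps34), rose by 0.96, and Car4, a carbonic anhydrase on the cell surface, by 0.71. Amy1, an amylase that shares exon bases with Rnpc3 on its own strand, had 44.5, 44.3 and 42.6 RPKM at 2 h, against 26.5, 16.7 and 22 RPKM in control (log2 1.02 ± 0.16 SE, adjusted p = 0.0420).

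Regulators of transcription and RNA were among the rises: 9 of 63 (14.3%) carry the table's annotation as transcription regulator, against 1 of 40 falls (2.50%) and 9.22% of all genes tested. Tcfeb, the older symbol of Tfeb, which switches on lysosome and autophagy genes, had 59.5, 48.2 and 43.7 RPKM at 2 h, against 29.8, 28.6 and 27.9 RPKM in control (log2 0.79 ± 0.14 SE, adjusted p = 0.0486). Cry2, a repressor of the clock, had 8.24, 8.95 and 8.32 RPKM at 2 h, against 5.20, 5.09 and 5.51 RPKM in control (log2 0.64 ± 0.08 SE, adjusted p = 0.0210). The 2 h libraries all lie above 8 RPKM, and no control reaches 6 RPKM. Of 19 clock genes tested Cry2 alone was called. The median was 0.33, or 0.24 in the matrix-adjusted fit, and it turned to -0.06 without the 3 libraries it marks. Per3, another repressor, had 3.32, 2.55 and 2.57 RPKM at 2 h, against 1.89, 0.796 and 0.978 RPKM in control (log2 0.99 ± 0.23 SE, adjusted p = 0.0743). The activator Clock had 1.83, 1.99 and 1.36 RPKM at 2 h, against 3.61, 2.58 and 3.58 RPKM in control (log2 -0.75 ± 0.15 SE, adjusted p = 0.0560). Gps2, a subunit of the corepressor complex of nuclear receptors, had 65.2, 53.1 and 53 RPKM at 2 h, against 34.2, 30.5 and 27.8 RPKM in control (log2 0.88 ± 0.12 SE, adjusted p = 0.0258). The Mediator subunits Med25 and Med30 rose by 0.57 and 0.58 on the log2 scale. The chromatin assembly factor Chaf1a (it overlaps Ubxn6, itself called) rose by 0.57, Aebp1 by 0.90 and Actr8, a subunit of a chromatin remodeller (it overlaps Il17rb), by 0.43.

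Neat1, the nuclear RNA that builds paraspeckles, had 154, 127 and 95.7 RPKM at 2 h, against 69.1, 45.4 and 56.5 RPKM in control (log2 1.13 ± 0.20 SE, adjusted p = 0.0467). Replicate 1 was highest in each of the 2 groups, and the groups do not overlap. None of the other 9 genes of the paraspeckle and nuclear noncoding list was called. Clk1, a kinase that phosphorylates splicing factors, had 6.90, 8.89 and 8.21 RPKM at 2 h, against 3.92, 3.68 and 3.94 RPKM in control (log2 0.96 ± 0.11 SE, adjusted p = 0.0197). It was the call among 19 splicing genes, whose median was 0.08. Clk4, a kinase of the same family, had 11.3, 9.68 and 8.41 RPKM at 2 h, against 6.95, 6.40 and 6.46 RPKM in control (log2 0.53 ± 0.11 SE, adjusted p = 0.0571). The splicing factor Srsf6 had 11, 9.71 and 8.32 RPKM at 2 h, against 14, 15.4 and 15.7 RPKM in control (log2 -0.61 ± 0.13 SE, adjusted p = 0.0574). Other RNA genes that rose were the tRNA methyltransferase Trmt1 (0.74), the translation initiation subunit Eif3f (0.74), the splicing factor Sugp1 (0.53) and the muscle noncoding RNA Nctc1 (0.76).

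Wdr45, Ubxn6, Ddrgk1 and Tbc1d17 were among the remaining rises. Wdr45, which helps autophagosomes form, had 32.6, 28.9 and 27.4 RPKM at 2 h, against 20.9, 20.6 and 18.6 RPKM in control (log2 0.55 ± 0.09 SE, adjusted p = 0.0430). Ubxn6, a cofactor of the segregase Vcp, rose by 0.59 on the log2 scale, and Ddrgk1, an adaptor for the ubiquitin-like UFM modifier, by 0.58. Tbc1d17, a regulator of Rab traffic (it overlaps Akt1s1 and Il4i1), rose by 0.48. Of 22 autophagy genes Tcfeb alone was called, at a list median of 0.05. The mitophagy kinase Pink1 had 529, 472 and 432 RPKM at 2 h, against 324, 252 and 278 RPKM in control (log2 0.75 ± 0.18 SE, adjusted p = 0.0778). Cys1, a protein of the primary cilium, had 1.87, 2.98 and 3.16 RPKM at 2 h, against 0.758, 0.448 and 0.695 RPKM in control (log2 1.47 ± 0.20 SE, adjusted p = 0.0268). It is a low gene, and its lowest 2 h library is well above the highest control. Pigb, an enzyme of GPI anchors that overlaps Ccpg1, is listed under 2 gene identifiers, and both rose. Smaller rises included the nuclear importer Ipo13, the palmitoyltransferase family member Zdhhc4, the checkpoint protein Rad1, the planar polarity effector Fuz (it overlaps Ap2a1), Ypel3, Ccni, Miip, Dgcr6, Clec2d, Prr24, Zfp259, Tmem42, Tmem52 and Tmem203 (it overlaps Ndor1). Their log2 differences lay between 0.46 and 0.81. The other 7 genes that rose have predicted or clone names.

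**Figure D3:**
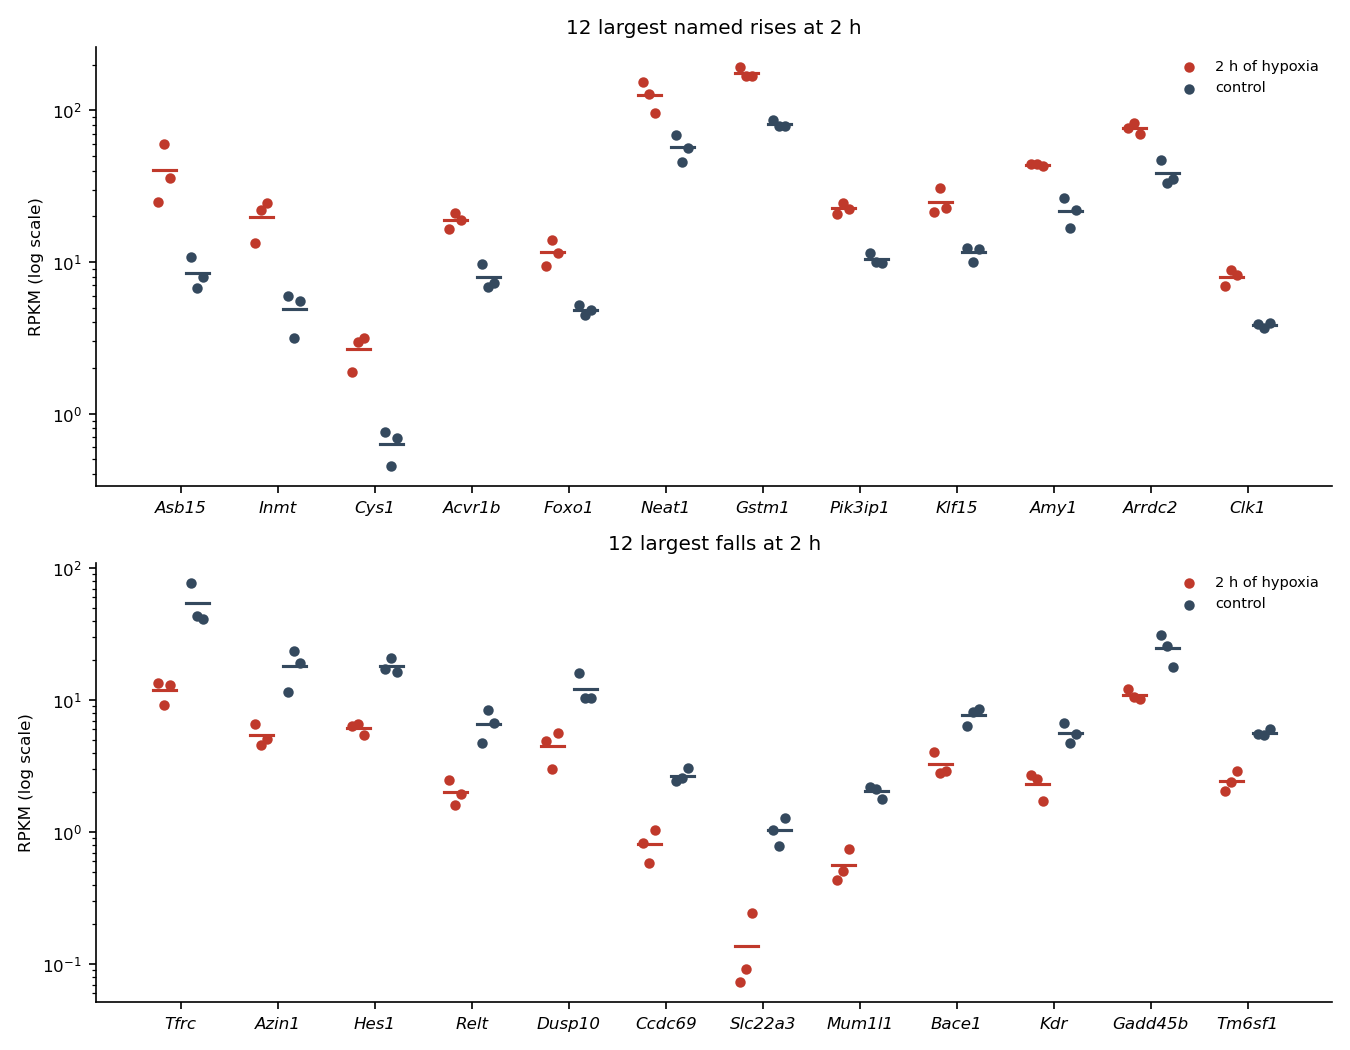
RPKM (log axis) of the 12 largest rises with gene names and the 12 largest falls, with 2 h of hypoxia in red on the left and control in dark blue on the right of each pair; points are libraries and bars are means of 3. In each gene shown the 2 h points lie all on 1 side of the control points.

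Tfrc, the receptor for the iron carrier transferrin, fell most. It lies on chromosome 16 from 32609006 to 32632880 in mm9 and had 13.6, 9.25 and 13 RPKM at 2 h, against 77.2, 43.5 and 41.4 RPKM in control (log2 -2.09 ± 0.24 SE, adjusted p = 0.0197). Control replicate 1 was highest, and the lowest control was more than 3 times the highest 2 h library. Iron regulatory proteins are known to bind hairpins in the tail of the Tfrc transcript and keep it stable while iron is scarce. The longest Tfrc transcript of GENCODE M21 has 4890 bases, and its coding part ends at base 2432. The hairpin sought had a loop of CAGTG and 1 more base, 5 base pairs, an unpaired C and 5 more pairs below. The search found 4 such hairpins of 27 bases, all after the coding part. They are printed with the loop letters CAGTG in capitals. The gene lies on chromosome 16, and the first bases of the hairpins lie at 3316, 3695, 3760 and 3807 of the transcript.
Tfrc hairpin 1: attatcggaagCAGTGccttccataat
Tfrc hairpin 2: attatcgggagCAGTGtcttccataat
Tfrc hairpin 3: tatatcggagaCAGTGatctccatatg
Tfrc hairpin 4: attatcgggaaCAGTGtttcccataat
The Tfrc promoter is shown as well, because the same gene is a known target of hypoxia-inducible factors. RefSeq GRCm38.p6 lists 2 overlapping Tfrc promoters on the plus strand. The one printed lies at chr16:32608646-32608945, and capitals mark the core letters ACGTG, which start at base -2. Counted from the start of the other, at chr16:32608872-32609171, the same letters lie at -228.
Tfrc promoter: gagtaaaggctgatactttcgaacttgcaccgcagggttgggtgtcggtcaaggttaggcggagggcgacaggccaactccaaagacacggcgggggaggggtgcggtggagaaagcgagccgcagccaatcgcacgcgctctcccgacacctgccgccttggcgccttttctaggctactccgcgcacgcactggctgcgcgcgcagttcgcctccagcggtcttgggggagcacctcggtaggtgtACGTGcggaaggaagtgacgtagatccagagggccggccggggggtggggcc
A match of letters says nothing of whether a protein bound there. Of 17 iron genes tested Tfrc alone was called. Their median was -0.11, or -0.02 in the matrix-adjusted fit and 0.03 without the 3 libraries it marks. Slc11a2, the iron carrier that follows Tfrc in uptake, had 5.66, 5.11 and 4.95 RPKM at 2 h, against 7.54, 9.38 and 7.91 RPKM in control (log2 -0.61 ± 0.17 SE, adjusted p = 0.0999). Slc25a28, the mitochondrial iron carrier, had 15.1, 14.7 and 13.9 RPKM at 2 h, against 10.8, 9.09 and 9.36 RPKM in control (log2 0.56 ± 0.11 SE, adjusted p = 0.0539). Fth1, the ferritin heavy chain that stores iron, had 1406, 1282 and 1381 RPKM at 2 h, against 1056, 1192 and 1113 RPKM in control (log2 0.28 ± 0.09 SE, adjusted p = 0.148).

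Azin1, Hes1, Dusp10, Gadd45b and Relt were further falls. Azin1, which protects ornithine decarboxylase and so polyamine synthesis, had 6.63, 4.54 and 5.07 RPKM at 2 h, against 11.6, 23.6 and 19.2 RPKM in control (log2 -1.62 ± 0.26 SE, adjusted p = 0.0420). Control replicate 1 was the lowest control and still above every 2 h library. It was the call among 13 polyamine genes, at a median of -0.19 that turned to 0.18 in the matrix-adjusted fit and 0.11 without the 3 libraries it marks. Amd1, which makes the aminopropyl donor, had 164, 225 and 312 RPKM at 2 h, against 494, 346 and 403 RPKM in control (log2 -0.86 ± 0.23 SE, adjusted p = 0.0988). Smox, the spermine oxidase, had 96, 139 and 204 RPKM at 2 h, against 265, 336 and 281 RPKM in control (log2 -1.06 ± 0.31 SE, adjusted p = 0.114). Hes1, a Notch-induced repressor of transcription on chromosome 16 from 30064470 to 30067882 in mm9, had 6.37, 6.59 and 5.43 RPKM at 2 h, against 17.2, 20.9 and 16.4 RPKM in control (log2 -1.49 ± 0.16 SE, adjusted p = 0.0197). All 2 h libraries lie below 7 RPKM and all controls above 16 RPKM. None of the other 22 Notch genes tested was called, and the list median of -0.04 turned to 0.09 in the matrix-adjusted fit and 0.05 without those 3 libraries. Heyl, another target of the pathway, had 1.31, 1.31 and 1.38 RPKM at 2 h, against 1.96, 1.89 and 2.20 RPKM in control (log2 -0.45 ± 0.11 SE, adjusted p = 0.0808). Dusp10, a phosphatase of stress-activated kinases, had 4.89, 2.99 and 5.65 RPKM at 2 h, against 15.9, 10.5 and 10.3 RPKM in control (log2 -1.36 ± 0.24 SE, adjusted p = 0.0467). It was the call among 16 MAP kinase phosphatase and feedback genes with a median of -0.16. Gadd45b, a stress gene that activates such kinases, had 12.1, 10.5 and 10.2 RPKM at 2 h, against 30.9, 25.5 and 18 RPKM in control (log2 -1.11 ± 0.18 SE, adjusted p = 0.0420). Relt, a receptor of the TNF family, had 2.46, 1.62 and 1.96 RPKM at 2 h, against 4.70, 8.41 and 6.72 RPKM in control (log2 -1.48 ± 0.24 SE, adjusted p = 0.0420). It was the call among 17 inflammation genes, whose median of -0.78 became -0.20 in the matrix-adjusted fit. Relt itself stood at -1.06 in that fit. The ribosomal S6 kinase Rps6ka3 fell by 0.90 on the log2 scale and the antiproliferative Tob1 by 0.80. The kinase-binding Sh3bp5 (it overlaps Capn7) fell by 1.01 and the adhesion scaffold Nedd9 by 0.75.

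Kdr, the main receptor for VEGF on endothelial cells, had 2.70, 2.55 and 1.72 RPKM at 2 h, against 6.68, 4.71 and 5.49 RPKM in control (log2 -1.12 ± 0.20 SE, adjusted p = 0.0486). The highest 2 h library, replicate 1, was well below the lowest control. Endothelial markers as a whole summed to 107 to 139 RPKM at 2 h, against 133 to 140.5 RPKM in control. Of the 14, 6 had a higher mean and 8 a lower one, and Kdr was the 1 called. Their part in the fall of Kdr was not tested. Among 14 VEGF and angiopoietin genes Kdr alone was called and the median was -0.31, or -0.30 in the matrix-adjusted fit. Vegfa, the ligand, had 20.3, 25.2 and 20.3 RPKM at 2 h, against 37.2, 30.4 and 31.4 RPKM in control (log2 -0.58 ± 0.16 SE, adjusted p = 0.0984). The co-receptor Nrp1 had 4.22, 3.40 and 3.02 RPKM at 2 h, against 6.83, 5.83 and 6.68 RPKM in control (log2 -0.79 ± 0.15 SE, adjusted p = 0.0532). In both every 2 h library was below every control.

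Acsl1, Cycs, Akap1 and Myom3 were also among the falls. The markers of slow fibres also had lower sums, at 705, 589 and 621 RPKM at 2 h, against 755, 1107 and 946 RPKM in control, without overlap. Of the 11 tested 0 were called (1 at an unadjusted p under 0.05) and 10 had lower means, with a median of -0.66, or -0.34 in the matrix-adjusted fit and -0.15 without the 3 libraries it marks. At 6 h the sum ran between 1136 and 5689.7 RPKM, so libraries differ widely in it. The part of slow fibre content in the falls described next was not tested. Acsl1, which activates long-chain fatty acids, had 55.4, 49.5 and 53 RPKM at 2 h, against 104, 95 and 91.5 RPKM in control (log2 -0.87 ± 0.10 SE, adjusted p = 0.0197). Its groups lie well apart. It was the call among 34 genes of fatty acid metabolism, at a median of -0.13. Plin5, a lipid droplet protein of oxidative muscle, had 7.61, 10.0 and 12.3 RPKM at 2 h, against 19.4, 17.4 and 15.3 RPKM in control (log2 -0.79 ± 0.20 SE, adjusted p = 0.0815). Cycs, cytochrome c, had 128, 142 and 162 RPKM at 2 h, against 262, 215 and 225 RPKM in control (log2 -0.70 ± 0.13 SE, adjusted p = 0.0497). It was the 1 call among 38 respiratory chain genes, 31 of which had lower means (median -0.13). Akap1, which anchors protein kinase A to the outer mitochondrial membrane, had 12.3, 15.7 and 13.8 RPKM at 2 h, against 24.6, 26 and 24.3 RPKM in control (log2 -0.82 ± 0.11 SE, adjusted p = 0.0298). Myom3, a protein of the sarcomere's M-band, had 12.4, 14.7 and 11.3 RPKM at 2 h, against 23.5, 21.2 and 24.8 RPKM in control (log2 -0.84 ± 0.14 SE, adjusted p = 0.0420). Sh3bgr, an abundant muscle protein, had 495, 526 and 571 RPKM at 2 h, against 742, 786 and 818 RPKM in control (log2 -0.56 ± 0.10 SE, adjusted p = 0.0463). Kcng4, a modulatory potassium channel subunit, had 6.41, 5.21 and 6.00 RPKM at 2 h, against 13.8, 11.5 and 12.7 RPKM in control (log2 -1.05 ± 0.14 SE, adjusted p = 0.0298). Thus 1 potassium channel gene fell where Kcnc4 rose.

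Carriers with Slc symbols made up 4 of the 40 falls (10.0%), against 0 of the 63 rises and 1.53% of all genes tested. This class was formed from gene symbols, not from the table's annotation, and its share was not tested. Slc22a3, an organic cation carrier (it overlaps Plg), had 0.0727, 0.0924 and 0.246 RPKM at 2 h, against 1.03, 0.787 and 1.29 RPKM in control (log2 -1.27 ± 0.22 SE, adjusted p = 0.0467). The 2 h values lie under the 0.5 added before taking logs, and the lowest rests on 4 reads. The monocarboxylate family member Slc16a6 (it overlaps Amz2 and Arsg) had 1.23, 1.00 and 0.944 RPKM at 2 h, against 2.79, 2.71 and 2.26 RPKM in control (log2 -0.99 ± 0.17 SE, adjusted p = 0.0454). The sodium bicarbonate carrier Slc4a4 fell by 0.68 on the log2 scale and the sodium proton exchanger Slc9a2 by 0.65.

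Low genes with sharp group differences closed the list of the largest falls. Ccdc69, a coiled-coil protein, had 0.832, 0.586 and 1.04 RPKM at 2 h, against 2.44, 2.57 and 3.04 RPKM in control (log2 -1.28 ± 0.16 SE, adjusted p = 0.0226). Mum1l1 had 0.437, 0.510 and 0.740 RPKM at 2 h, against 2.21, 2.12 and 1.79 RPKM in control (log2 -1.26 ± 0.15 SE, adjusted p = 0.0210). It rests on only 6 to 13 reads per library at 2 h and 28 to 37 in control. Bace1, the β-secretase (it overlaps Rnf214), had 4.05, 2.82 and 2.90 RPKM at 2 h, against 6.34, 8.13 and 8.59 RPKM in control (log2 -1.13 ± 0.18 SE, adjusted p = 0.0420). In all 3 genes no 2 h library came near a control. Tm6sf1, a membrane protein (it overlaps Hdgfl3), had 2.06, 2.40 and 2.91 RPKM at 2 h, against 5.56, 5.42 and 6.06 RPKM in control (log2 -1.07 ± 0.14 SE, adjusted p = 0.0258). Cpeb1, which controls poly(A) tails of messages, had 4.27, 4.09 and 3.75 RPKM at 2 h, against 7.80, 9.64 and 8.98 RPKM in control (log2 -1.03 ± 0.14 SE, adjusted p = 0.0287). Fam101b, an actin organiser also called refilin B, had 3.23, 3.35 and 3.06 RPKM at 2 h, against 6.35, 6.53 and 7.10 RPKM in control (log2 -0.95 ± 0.09 SE, adjusted p = 0.0145). It shares the smallest adjusted p with Pik3ip1. B4galt5, a galactosyltransferase of glycolipids, fell by 1.02 on the log2 scale and the cytoskeletal regulator Raph1 by 0.94. The phosphoinositide phosphatase Inpp5j (it overlaps Pla2g3) fell by 0.89 and Hspa4l, a chaperone, by 0.81. Zfand2a, Nt5c3, Ank2, Lace1, Mtmr10, Fam13b (it overlaps Pkd2l2), Apoh (it overlaps Prkca) and Usp12 fell by 0.58 to 0.74, and 1 clone-named gene completes the 40.

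Lists of the hypoxia-inducible factor pathway held 1 call at 2 h, against 0.774% called of all genes tested. Of the 10 hypoxia-inducible factor subunits and oxygen sensors 0 were called in either direction, and 1 had an unadjusted p under 0.05. Hif1a had 4.54, 4.52 and 3.68 RPKM at 2 h, against 4.44, 7.97 and 7.03 RPKM in control (log2 -0.53 ± 0.24 SE, adjusted p = 0.260). Hif3a had 0.474, 1.15 and 1.41 RPKM at 2 h, against 0.221, 0.168 and 0.702 RPKM in control (log2 0.80 ± 0.41 SE, adjusted p = 0.310). In both the groups overlap, and Hif3a rests on only 1 to 8 reads per control library. Of 27 factor targets 0 rose and 1 fell, Tfrc. Their median was -0.28, or -0.09 in the matrix-adjusted fit and 0.05 without the 3 libraries it marks. Ankrd37, a target in many cells, had 3.07, 1.22 and 1.36 RPKM at 2 h, against 3.65, 5.02 and 3.98 RPKM in control (log2 -1.05 ± 0.27 SE, adjusted p = 0.0837). Mxi1, a Myc antagonist, stood the other way at 14.2, 11.6 and 10.4 RPKM at 2 h, against 8.13, 5.70 and 5.86 RPKM in control (log2 0.84 ± 0.21 SE, adjusted p = 0.0830). Of 21 glycolytic genes 0 were called, and their median of -0.28 became -0.08 in the matrix-adjusted fit. Pgk1, phosphoglycerate kinase, had 430.1, 466 and 562 RPKM at 2 h, against 653, 765 and 740.0 RPKM in control (log2 -0.57 ± 0.12 SE, adjusted p = 0.0626). The abundant Aldoa, aldolase A, had 10285, 10046 and 11224 RPKM at 2 h, against 8342, 9348 and 8351 RPKM in control (log2 0.28 ± 0.08 SE, adjusted p = 0.125). In neither do the groups overlap.

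**Figure D4:**
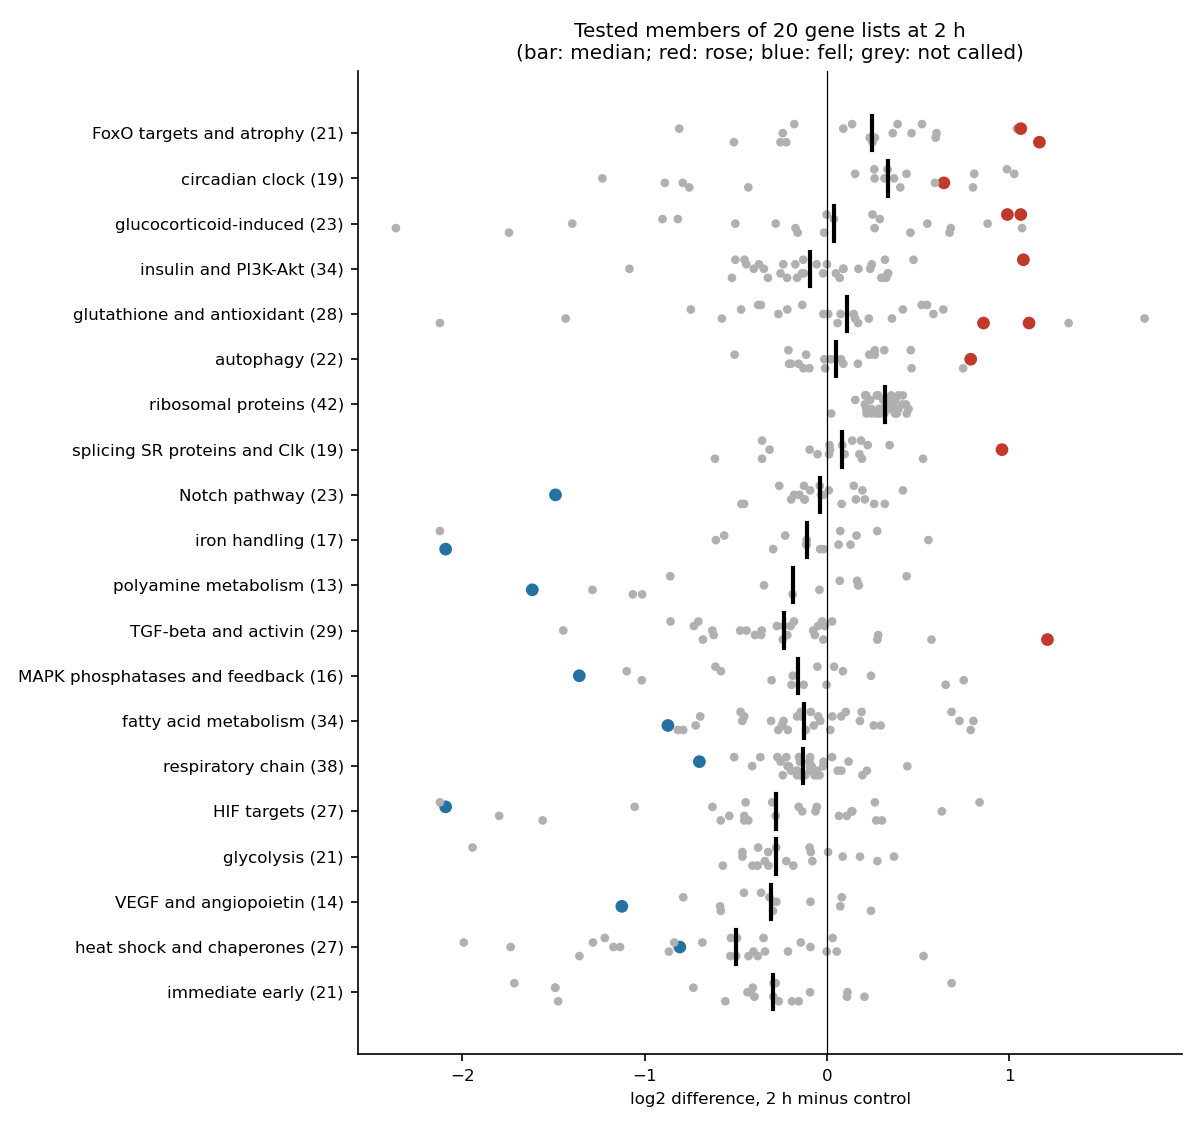
Log2 differences, 2 h minus control, of the tested members of 20 gene lists (number tested in parentheses); each point is a gene, red where it rose, blue where it fell and grey where it was not called, and black bars are list medians. Each list shown holds at most 2 called genes, and the ribosomal protein genes lie together with a median of 0.32.

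Other lists shifted with few or no calls, in ways that also run with differences between libraries of a group. All 42 ribosomal protein genes had higher means at 2 h (0 called, 27 at an unadjusted p under 0.05, median 0.32). Their median was larger in the matrix-adjusted fit, at 0.44, and without the 3 libraries it marks, at 0.46. Both fits lean on control replicate 1, which was the lowest control in these genes. Averaged over the 42 genes, log2 values centred over the 9 libraries were 0.36, -0.03 and 0.07 at 2 h, against -0.32, -0.07 and -0.13 in control. With 1 library left out at a time the list median ran between 0.20 and 0.41. Rpl8 had 433, 345 and 356 RPKM at 2 h, against 267, 297 and 263 RPKM in control (log2 0.45 ± 0.11 SE, adjusted p = 0.0766). Here 2 h replicate 1 was highest. Among 27 chaperone and heat shock genes 24 means were lower and Hspa4l alone was called. The median was -0.50, and -0.18 in the matrix-adjusted fit. Hspa8, the constitutive chaperone, had 294, 376 and 372 RPKM at 2 h, against 724, 882 and 931 RPKM in control (log2 -1.28 ± 0.24 SE, adjusted p = 0.0527). The inducible Hspa1b had 2.02, 2.24 and 1.25 RPKM at 2 h, against 4.20, 15.8 and 9.41 RPKM in control (log2 -1.99 ± 0.46 SE, adjusted p = 0.0717). In both genes control replicate 1 was the lowest control. Among 24 matrix and collagen genes 23 means were lower, with 0 called and a median of -1.48, or -0.57 in the matrix-adjusted fit. Sparc, a matrix protein, had 71.3, 63.3 and 97 RPKM at 2 h, against 213, 298 and 323 RPKM in control (log2 -1.84 ± 0.39 SE, adjusted p = 0.0574). Control replicate 1 too lay above the 2 h libraries. The part of the matrix and macrophage levels of control replicates 2 and 3 in these shifts was not tested. All 21 immediate early genes, 18 amino acid transporters, 17 metallothionein and zinc genes, 17 myogenic regulators and 24 genes of ER and integrated stress went without a call. In that last list 20 means were lower and 4 higher, with a median of -0.23, or -0.03 in the matrix-adjusted fit. Its highest log2 difference, against the direction of most members, was that of Chac1, which degrades glutathione. Chac1 had 66.3, 90.3 and 54.6 RPKM at 2 h, against 32.5, 26.1 and 14.7 RPKM in control (log2 1.55 ± 0.36 SE, adjusted p = 0.0704). Among the myogenic regulators Tead4, a partner of Yap, had 2.07, 1.82 and 1.49 RPKM at 2 h, against 4.44, 4.05 and 4.03 RPKM in control (log2 -1.03 ± 0.20 SE, adjusted p = 0.0539).

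The genes that rose and fell differed in the length and base content of their transcripts. Genes that rose had short transcripts rich in G and C, with a median of 2342 bases and 54.0% GC, against 3978 bases and 49.5% GC for those that fell and 3238 bases and 49.96% GC for all genes tested. Of the 61 rises with a transcript in GENCODE M21, 24 were in the shortest quintile of tested genes and 25 in the quintile richest in GC. Over all genes tested the median log2 difference was 0.05 in the shortest quintile and -0.05 in the longest. The part of length or GC in the calls was not tested.

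The 6 h group shares its controls with 2 h, so the values are set side by side only. At 6 h limma called 213 genes, 1.60% of those tested. Of the 63 genes that rose at 2 h 60 had means above control at 6 h and 20 were called again, and of the 40 that fell 38 had means below control and 10 were called again. Foxo1 stood at 13.2, 13.8 and 14.7 RPKM at 6 h (log2 1.43 against control), Acvr1b at 27.3, 19.3 and 21 RPKM (1.45) and Hes1 at 5.06, 7.57 and 5.61 RPKM (-1.51), all on the same side of control as at 2 h. Other genes lay nearer to control again by 6 h: Acsl1 at 77.5, 84.1 and 93.8 RPKM (-0.19), Myom3 at 26, 26.5 and 20.3 RPKM (0.06), Xdh at 6.26, 5.67 and 5.70 RPKM (0.15) and Rad1 at 2.43, 2.32 and 2.63 RPKM (0.02). Tfrc stood at 23.6, 29.5 and 29.6 RPKM (-0.91), between 2 h and control. Neat1 alone was called with opposite signs, at 25.6, 20.9 and 20.5 RPKM at 6 h, below every control (log2 -1.32, adjusted p = 0.0243 by limma). No difference between the times was tested here.

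The number of genes called rests on single libraries. It was 0 without 2 h replicate 2, without control replicate 2 or without control replicate 3, where limma gave 2264, 2038 and 1726 genes at an unadjusted p under 0.05, against 2678 with all libraries. Without 2 h replicate 1 it was 13, without 2 h replicate 3 it was 11, without 6 h replicates 1 and 3 in turn 30 and 18, without control replicate 1 it was 160 and without 6 h replicate 2 it was 396. Scaling the libraries by median ratios gave 69 rises and 69 falls in place of 63 and 40, with 92 of the 103 genes shared. With only the 6 libraries compared 56 of the 103 were among 124 called, and without control replicate 1 59 were among 160. Quantile normalisation shared 79 of its 115, and the matrix-adjusted fit 4 of its 6. Each of the 103 genes kept its sign under all 24 alternatives, but this was largely fixed in advance. The 2 h libraries of each lie all on 1 side of the controls, so leaving 1 out cannot turn the sign. Several other settings change only the test. Pik3ip1, Hes1 and Fam101b were called under 18 of the 24, Foxo1, Tfrc, Clk1 and Acsl1 under 16, and Cycs under 5. On recovered reads edgeR called 157 genes (1.18%) and DESeq2 1381 (11.1%), and these included 90 and 102 of the 103. The authors' deposited table has no gene at an adjusted p under 0.05 for 2 h, with a smallest value of 0.0795, and 2624 genes at a raw p under 0.05, among them all of the 103.

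**Figure D5:**
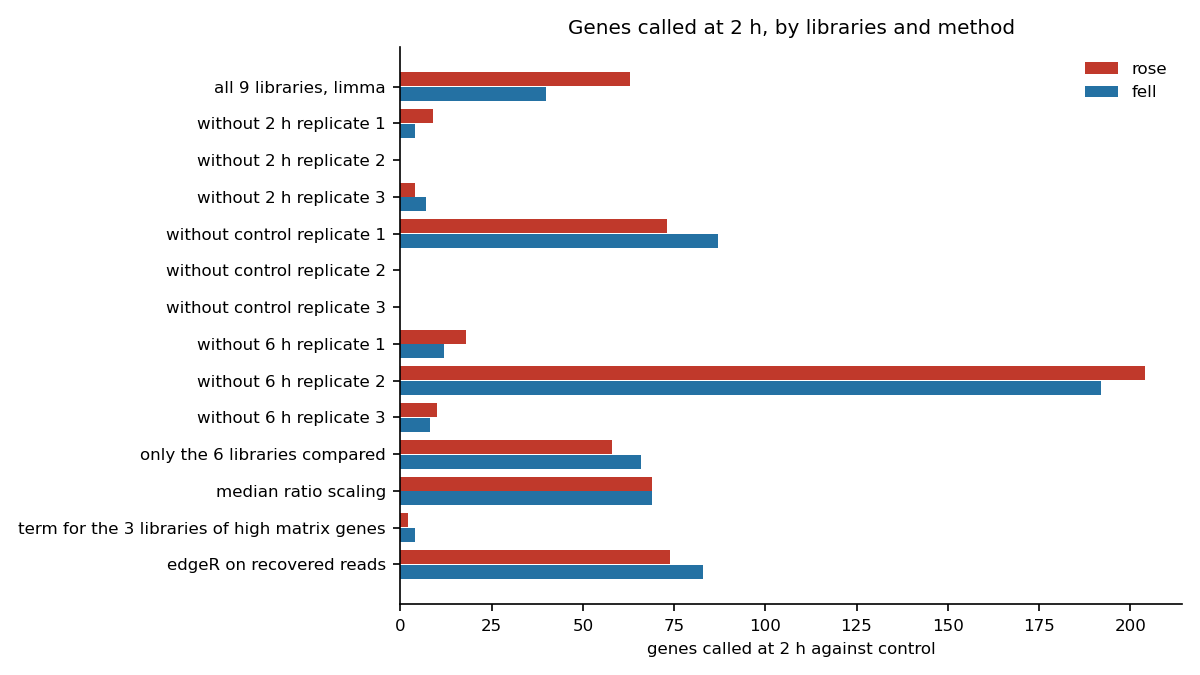
Number of genes called at 2 h against control (bars from 0; red rose, blue fell) with all 9 libraries, without each library in turn, and under 4 other settings. The count is 0 without 2 h replicate 2, control replicate 2 or control replicate 3, and 204 rises and 192 falls without 6 h replicate 2.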

How the data were processed

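TruSeq libraries of mouse plantaris RNA were sequenced from both ends, per the labels. TopHat2, Bowtie2, SAMtools, bedtools, FastQC and the build mm9 are named in the submitters' processing notes. Not given in the sources used here are how reads were assigned to genes and whether strand was used. RPKM values were deposited by the authors for 13722 genes. The deposited table also holds each gene's largest raw count over the libraries and the authors' p-values, whose test is not stated.

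Genes with a mean of at least 0.5 RPKM over 9 libraries were fitted with limma 3.58.1 (R 4.3.3) on log2(RPKM + 0.5) over all 9 libraries with group means and the trend option, and p-values were adjusted by Benjamini-Hochberg over the 13309 genes, with a threshold of 0.05. A fold on this scale understates the change of low genes. RPKM steps gave whole reads within 0.1 read for 100.0% of 40181 values under 500 reads, and edgeR 4.0.16 and DESeq2 1.42.0 were run on these reads as alternatives. The fit was tested on simulated data. The members, the 42 gene lists and the motifs were chosen with earlier results of these data known. Genes named are those called (clone names and predicted genes left out), list members of smallest p, a short list of hypoxia and steroid genes, and markers. Promoters are those of RefSeq (GRCm38.p6) and transcripts those of GENCODE M21, matched by symbol or identifier; gene coordinates are the file's.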

Additional observations from a re-analysis of the deposited data

How the results depend on the processing

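The counts of genes called moved with the processing. No gene called changed sign, which was largely fixed in advance because the groups of each called gene do not overlap. In place of 103 genes (63 higher, 40 lower), a minimum mean of 2 RPKM gave 199 (137 and 62), limma without the trend 29 (12 and 17), library weights 3068 (1517 and 1551), the matrix-adjusted fit 6 (2 and 4), edgeR 157 (74 and 83) and DESeq2 1381 (726 and 655). Only the 6 libraries compared gave 124 (58 and 66), 56 of them among the 103, and median ratio scaling 138 (69 and 69). A test against a fold of 1.2 gave 0 higher and 0 lower (776 at an unadjusted p under 0.05), and a fit without the 3 libraries that the matrix-adjusted fit marks, which leaves 1 control assumed to vary like the other groups, gave 0 and 0 (1578 unadjusted). Pseudocounts of 0.1 and 1, no filter and quantile normalisation gave 101 to 115. Leaving out 1 library at a time gave 0 to 396 genes, 0 to 204 higher and 0 to 192 lower. The cause of these moves was not tested.

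With the replicate number as a block 1 gene was called, 0 higher and 1 lower (2591 unadjusted). Same-numbered libraries of the 2 groups did not deviate together (r = -0.106, -0.166 and 0.068, and only number 3 was its own best match both ways). With so few libraries these values cannot show whether the numbers stand for a pairing.

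Of 2461 values of called genes under the alternatives 1176 kept their side of the threshold and 1285 lost it. Among uncalled genes Epas1 turned to -0.12 without those 3 libraries and -0.10 in the matrix-adjusted fit, and Mt1 to 0.035 without them. With 1 library left out at a time Trim63 ran between -0.024 (without control replicate 1) and 0.65. Depth limits only the lowest genes, such as Slc22a3 with 4 to 19 reads at 2 h and Mum1l1 with 6 to 13.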
